A study of Mus musculus with 6 samples.

Results

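The FOXO factors Foxo1, Foxo3 and Foxo4 were followed together with Ccng2, Sesn3, Gadd45a and Bcl6, genes known to be switched on by FOXO factors in growth arrest and stress. Every non-control probe that the array files name for one of these genes was taken, which gave 11 probes of 55681 for 7 of 24105 named genes on the array, and each probe was kept separate. RNA came from 1676 cells, a mouse pre-B cell line that lacks the adaptor proteins SLP-65 and LAT (genotype SLP-65-/- LAT-/-) and grows on IL-7. The cells carried a retroviral control vector, a vector for miR-26a (human hsa-miR-26a-2), or a vector for a miR-26 sponge, an RNA with binding sites that captures the microRNAs of the miR-26 family. All 6 cultures were selected with puromycin and kept in excess IL-7, and there were 2 one-colour Agilent arrays per group, 1 from each of 2 experiments with separately made cells. These are 3 groups within a single cell line. The control was an empty vector, no array of a control sponge was analysed here, and the level of miR-26 itself was not analysed here.

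FOXO proteins are forkhead transcription factors. Phosphorylation by AKT, the kinase downstream of PI3K, moves them out of the nucleus, so growth factor signalling lowers their activity without any need for a change in their own mRNA. In B cell precursors FOXO1 is known for its part in the expression of the IL-7 receptor and of the Rag genes, and in many cell types FOXO factors act on genes for cell cycle arrest, repair of damage and resistance to oxidative stress.

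The expressed construct was human, and the sequences shown are those of the mouse family (RefSeq, GRCm38.p6), with the seed, bases 2 to 8 of the mature microRNA, in capitals because both members share it. Mature miR-26a has 22 bases and is encoded at chr9:119031811-119031832 (Mir26a-1) and at chr10:126995543-126995564 (Mir26a-2), and mature miR-26b has 21 bases and lies at chr1:74394324-74394344, all on the plus strand.
mmu-miR-26a-5p: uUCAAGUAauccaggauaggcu
mmu-miR-26b-5p: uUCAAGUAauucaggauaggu
The DNA letters complementary to this seed are TACTTGA. They were found in 0 of the 11 probes and in 240 of all 55681 probes (0.431%), read in the sense orientation of the probe. The shorter match ACTTGA, which every TACTTGA also contains, was found in 0 of the 11 and in 1091 of all probes (1.96%). A probe covers 60 bases of a transcript, so these counts say nothing of the rest of the mRNA.

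The promoters of the genes whose probes changed, Ccng2 and Sesn3, were read from the same RefSeq build as the 250 bases before the transcription start. Both are on the plus strand, Ccng2 at chr5:93267323-93267572 and Sesn3 at chr9:14276051-14276300, and the capitals mark a match to CAAAACA, a form of the forkhead element.
Ccng2 promoter: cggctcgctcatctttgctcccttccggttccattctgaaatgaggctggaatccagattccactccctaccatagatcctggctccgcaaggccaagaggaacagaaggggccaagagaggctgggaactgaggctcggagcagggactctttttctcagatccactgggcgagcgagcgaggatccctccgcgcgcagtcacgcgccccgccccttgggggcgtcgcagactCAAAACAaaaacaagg
Sesn3 promoter: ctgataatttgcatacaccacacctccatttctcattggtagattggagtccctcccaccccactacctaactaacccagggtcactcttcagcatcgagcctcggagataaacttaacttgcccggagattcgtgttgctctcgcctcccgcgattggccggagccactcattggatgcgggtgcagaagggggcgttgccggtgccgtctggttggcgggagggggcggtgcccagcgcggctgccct
The match in the Ccng2 promoter ends close to the start site, beginning 16 bases before it. CAAAACA or its reverse complement TGTTTTG occurred in 1 of 7 promoters of the 6 member genes in the table and in 1827 of 32851 promoters of the same length (5.56%). The canonical element GTAAACA or its complement TGTTTAC occurred in 0 of the 7 and in 1040 of 32851 (3.17%).

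The 6 arrays were hybridised on 1 slide and scanned together, with 28823 to 29800 of 59305 spots well above background and 0 saturated spots on each. Values here are log2 of the scanner's processed signal after quantile normalization, and replicate arrays of a group correlated at 0.996 to 0.997. All 6 B-lineage markers examined, Cd79a, Cd79b, Igll1, Vpreb1, Pax5 and Cd22, exceeded background on every array, and the log2 of their summed signal was 18.60 to 18.69 in control, 18.57 to 18.64 in miR-26a and 18.59 to 18.73 in sponge arrays. Of 6 myeloid markers 3 (Itgam, Csf1r and Elane) stood above background on each array and Cd14 on none, with summed log2 signals of 11.79 to 12.16, 11.89 to 12.15 and 11.53 to 12.10 in the same order. Of 6 T-cell markers Cd3e (8.71 to 9.11) and Cd4 (9.29 to 9.76) were above background on every array, Cd3d and Trat1 on some, and Cd3g and Cd8a on none. Of 3 erythroid markers Epor (4.08 to 4.91) and Klf1 (4.35 to 4.77) were above background on every array and Hbb-b1 on none. The T-cell list summed to 10.46 to 10.47 in control, 10.34 to 10.47 in miR-26a and 10.06 to 10.23 in sponge arrays. For the erythroid list the sums were 5.40 to 5.56, 5.59 to 5.83 and 5.69 to 5.76 in the same order. A part of these markers in the results was not tested, and in bulk RNA fewer expressing cells and less RNA per cell cannot be told apart. The probes for Blnk (SLP-65) and Lat gave 14.90 to 15.61 and 10.10 to 10.30, above background on all 6 arrays. By group means these probes changed by -0.49 and -0.07 with miR-26a, and by 0.12 and 0.03 with the sponge. Where they lie relative to the deleted parts of the genes is not given in the sources used here, so they check nothing about the genotype.

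Of the 11 probes, 7 for 6 genes were bright enough to test, and no Foxo4 probe was among them. With miR-26a, Ccng2 and Sesn3 fell below control, by 1.56-fold and 1.34-fold, while the probes for Foxo1, Foxo3, Gadd45a and Bcl6 did not pass the test in either direction. With the sponge none of the 7 passed. Changes were tested with limma on all 20168 probes that passed the signal filter. Experiment, taken from the replicate number, was a block. Changes were called at a Benjamini-Hochberg adjusted p under 0.05. Calls against control thus made up 2 of 7 member probes lower, where 5.14% of all tested probes were lower, and 0 of 7 higher, where 4.5% were higher. At an unadjusted p under 0.05 limma gave the same 2 lower and 0 higher members, beside 13% lower and 14.3% higher of all tested probes. An unpaired t-test gave unadjusted p values of 0.0659 for Ccng2 and 0.0141 for Sesn3, beside 1331 lower and 1348 higher of all probes under 0.05. A test of the log ratios against 0 gave 0.104 for Ccng2, 0.0365 for Sesn3 and 0.0225 for 1 Foxo1 probe (A_52_P453884, lower), beside 1095 and 1297. Both tests gave 0 higher members, and after adjustment they called 0 of all tested probes. The median change was -0.16 over the 7 probes and 0.01 over all tested probes. The plot of signals by array shows each value.

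**Figure D1:**
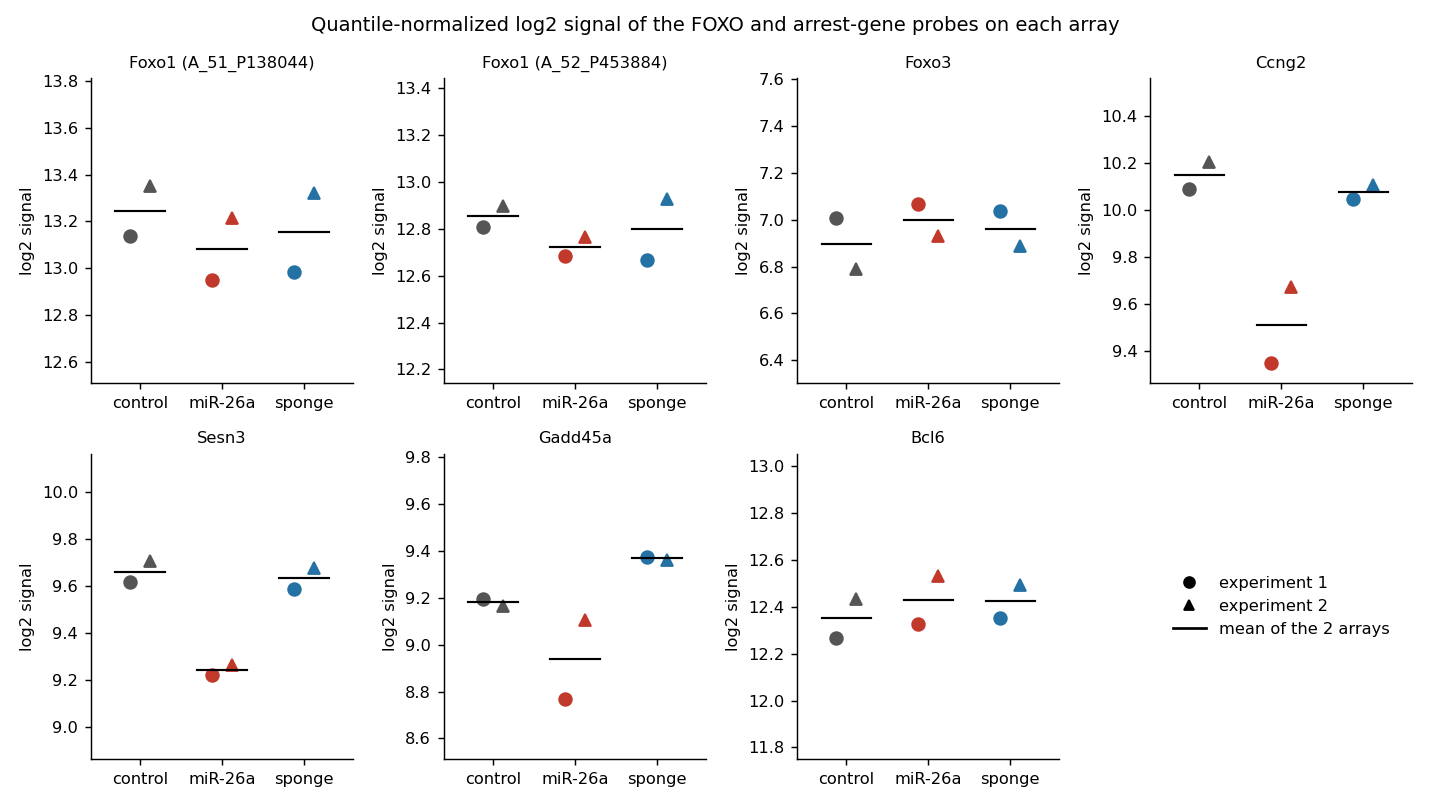
Quantile-normalized log2 signal (vertical axis, each panel spanning the same number of log2 units around its own probe) on the control, miR-26a and sponge arrays for the 7 tested probes. Points are single arrays, circles for experiment 1 and triangles for experiment 2, and horizontal lines are means of 2 arrays. The Ccng2 and Sesn3 points of miR-26a lie below all 4 other points of their panels, and in the Foxo1, Foxo3 and Bcl6 panels the sponge points overlap those of both other groups.

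Foxo1, the main FOXO factor of B cell precursors, was read by a pair of probes on chromosome 3 of mm9, at chr3:52150183-52150242 (A_51_P138044) and chr3:52153289-52153348 (A_52_P453884), both on the plus strand. The first gave log2 signals of 13.14 and 13.35 in control, 12.95 and 13.21 in miR-26a, and 12.99 and 13.32 in sponge arrays. These ranges overlap, and in all 3 groups the array of experiment 2 was the brighter one. Its change with miR-26a was -0.16 (SE 0.07, 95% interval -0.34 to 0.01, limma adjusted p = 0.214) and with the sponge -0.09 (-0.27 to 0.08, adjusted p = 0.554). The second probe gave 12.81 and 12.90 in control, 12.68 and 12.76 in miR-26a, and 12.67 and 12.93 in sponge arrays. On this probe both miR-26a arrays lay below both control arrays, with the sponge arrays on either side of them. The change was -0.13 (SE 0.08, -0.33 to 0.07, limma adjusted p = 0.353) with miR-26a and -0.06 (-0.25 to 0.14, adjusted p = 0.744) with the sponge. Both probes placed control highest and miR-26a lowest in mean, and within the experiments miR-26a was below control on both, at -0.19 and -0.14 on the first and -0.13 on the second in each. No pair of neighbouring groups passed the test, which has the experiment as a block. Over all alternatives tried the Foxo1 changes with miR-26a stayed between -0.20 and -0.08 and were called in none.

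Foxo3, a FOXO factor with largely overlapping targets, had 1 testable probe, at chr10:41967288-41967347 on the minus strand. It gave 7.01 and 6.79 in control, 7.07 and 6.93 in miR-26a, and 7.04 and 6.89 in sponge arrays. The 3 ranges overlap, and experiment 1 was the brighter one in each group. Its change was 0.10 with miR-26a (SE 0.07, -0.07 to 0.27, limma adjusted p = 0.410) and 0.06 with the sponge (-0.10 to 0.23, adjusted p = 0.663). The array design assigns the tested probe to a sequence record other than the RefSeq mRNA of Foxo3. That mRNA is the record of the other Foxo3 probe, at chr10:41905610-41905669 on the minus strand. This other probe was well above background on all 6 arrays but never reached a processed signal of 50, the minimum for testing. There it read 4.27 and 4.34 in control, 4.87 and 4.61 in miR-26a, and 4.85 and 4.21 in sponge arrays. Both miR-26a arrays were above both control arrays on this dim probe, and of the sponge arrays 1 was near the control and 1 near the miR-26a level. In a fit over all 55681 probes its change with miR-26a was 0.43 (limma adjusted p = 0.611). That fit called 0 of all probes (smallest limma adjusted p 0.232), so it cannot decide on this one.

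Foxo4, the X-linked family member, was near background on all its probes. The probe at chrX:98454974-98455033 was well above background on the 4 control and miR-26a arrays and on neither sponge array. It read 3.89 and 4.07 in control, 4.23 and 4.17 in miR-26a, and 3.71 and 3.39 in sponge arrays, so the 3 groups did not overlap. Of all tested probes 49.3% had no overlap between miR-26a and control, 37.7% between sponge and control, and 50.9% between miR-26a and sponge. The sponge readings were not well above background, so the sponge level is only an upper limit. By the measured means miR-26a was 1.57-fold and control 1.36-fold higher than the sponge. In the fit over all probes the limma adjusted p was 0.277 for miR-26a and 0.665 for control against sponge. That fit called 0 of 55681 probes in either comparison (smallest limma adjusted p 0.171 and 0.441), so it cannot decide on this probe. A second Foxo4 probe, at chrX:98454966-98455025, shares 52 of its 60 bases with the first and was well above background on no array. Its readings were 3.77 and 3.52 in control, 3.78 and 3.48 in miR-26a, and 3.28 and 3.60 in sponge arrays, and these overlap. The third, at chrX:98451524-98451583, was well above background on 1 control and 1 miR-26a array, with 4.02 and 3.15 in control, 3.98 and 3.08 in miR-26a, and 3.57 and 3.21 in sponge arrays. All 3 probes lie on the plus strand. The sponge mean was the lowest on each of them, but on the last 2 described the groups overlapped.

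Ccng2 encodes cyclin G2, an atypical cyclin that is known to accumulate in arrested rather than dividing cells. Its probe lies at chr5:93705131-93705190 on the plus strand and read 10.09 and 10.21 in control, 9.35 and 9.67 in miR-26a, and 10.05 and 10.11 in sponge arrays. Both miR-26a arrays were lower than each of the 4 others, and the control and sponge ranges overlapped. The change with miR-26a was -0.64 (SE 0.09, 95% interval -0.86 to -0.42, limma adjusted p = 0.0155), a mean level 64.2% of control. Within the experiments it was -0.74 and -0.53. Leaving out control replicate 1 gave -0.60 with an adjusted p of 0.138, and leaving out control replicate 2 gave -0.68 with 0.110, so the call needs both control arrays. Without the block the adjusted p was 0.0810.

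Sesn3 encodes sestrin 3, a stress protein that restrains mTORC1 and lowers reactive oxygen species. The probe at chr9:14130452-14130511 on the plus strand read 9.62 and 9.71 in control, 9.22 and 9.26 in miR-26a, and 9.59 and 9.68 in sponge arrays. The pattern was that of Ccng2 at a smaller size, with the miR-26a arrays apart from 4 arrays that overlapped. The change with miR-26a was -0.42 (SE 0.07, -0.58 to -0.25, limma adjusted p = 0.0216), and within the experiments -0.39 and -0.44. Its size hardly moved when an array was left out, from -0.44 to -0.39, but its adjusted p rose to 0.174 without control replicate 1, 0.184 without control replicate 2, 0.0753 without miR-26a replicate 2 and 0.0502 without either sponge array. Without the block it was 0.0825.

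Gadd45a encodes a growth arrest and DNA damage protein that slows the cell cycle under stress. Its probe, at chr6:66985376-66985435 on the minus strand, read 9.20 and 9.17 in control, 8.77 and 9.11 in miR-26a, and 9.38 and 9.36 in sponge arrays. The 3 groups did not overlap, with sponge highest and miR-26a lowest, and the miR-26a arrays were far apart from each other. The change was -0.24 with miR-26a (SE 0.11, -0.52 to 0.03, limma adjusted p = 0.227), made up of -0.43 in experiment 1 and -0.06 in experiment 2. Without miR-26a replicate 1 this change was -0.06 and without replicate 2 it was -0.42, and without control replicate 1 it was -0.15. With the sponge it was 0.19 (-0.09 to 0.46, adjusted p = 0.443), with 0.18 and 0.19 in the experiments. Leaving out 1 array moved it, to 0.09 without control replicate 2, 0.10 without sponge replicate 1 and 0.28 without control replicate 1. Neither neighbour in this order differed from the next beyond the error of the fit. Groups that do not overlap were common: 49.3% of all tested probes had this between miR-26a and control, against 4 of the 7 member probes, and 37.7% between sponge and control, against 1 of 7.

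Bcl6 encodes a transcriptional repressor that FOXO factors induce and that protects B cell precursors while DNA breaks are made. The probe at chr16:23965160-23965219 on the minus strand read 12.27 and 12.43 in control, 12.33 and 12.53 in miR-26a, and 12.35 and 12.49 in sponge arrays. All 3 ranges overlapped, and experiment 2 was the brighter one in each. The change was 0.08 with miR-26a (SE 0.07, -0.09 to 0.24, limma adjusted p = 0.514) and 0.07 with the sponge (-0.10 to 0.24, adjusted p = 0.622).

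The sponge asks whether lowering the family moves these genes the other way. Of the 7 tested probes 0 were called lower and 0 higher against control by limma, and the same counts held at an unadjusted p under 0.05. Over all tested probes 0% were called lower and 0.00992% higher, which are 0 and 2 probes, with 1759 lower and 1488 higher at an unadjusted p under 0.05. The other tests run called 0 of the 7 after adjustment and 0 of all 20168 tested probes, so these 0 calls decide nothing. Among these other tests, what is called the methods' t-test here is an unpaired t-test, chosen because the paper's array methods name no test. It gave Gadd45a an unadjusted p of 0.00768, beside 771 lower and 521 higher of all 20168 tested probes at an unadjusted p under 0.05. The test of the log ratios against 0 gave unadjusted p values of 0.00583 for Sesn3 and 0.0255 for Gadd45a. By that test 753 of all tested probes were lower and 726 higher at an unadjusted p under 0.05. The Sesn3 log ratio was only -0.028 in each experiment. The Ccng2 change was -0.07 (95% interval -0.29 to 0.15, adjusted p = 0.705) and that of Sesn3 -0.03 (-0.19 to 0.14, adjusted p = 0.856), so the intervals leave room for changes of up to 0.15 and 0.14 upward. The same 2 control arrays served both comparisons.

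The direct contrast of miR-26a with the sponge is also the test of whether the changes against control differ. Ccng2 was lower with miR-26a by this contrast, at -0.57 (SE 0.09, limma adjusted p = 0.0153), and Sesn3 at -0.39 (SE 0.07, adjusted p = 0.0187). Gadd45a came to -0.43 (SE 0.11, 95% interval -0.70 to -0.16, adjusted p = 0.0519) and did not pass. Its call turned on 1 array and on the background correction: without miR-26a replicate 2 the difference was -0.61 with an adjusted p of 0.0141, without miR-26a replicate 1 it was -0.25 with 0.166, and after normexp correction it was -0.43 with 0.0193. The Foxo1 probes gave -0.07 each (adjusted p = 0.523 and 0.552), Foxo3 0.04 (0.746) and Bcl6 0.01 (0.955). That makes 2 of 7 lower, where 8.49% of all tested probes were lower, and 0 of 7 higher, where 8.28% were higher. At an unadjusted p under 0.05 limma gave 3 lower and 0 higher, beside 15.9% and 18.7% of all tested probes. Leaving out either sponge array ended both calls, with an adjusted p of 0.101 and 0.0695 for Ccng2 and of 0.0941 and 0.0918 for Sesn3 without sponge replicate 1 and 2. For Sesn3 it rose to 0.0533 without either control array and to 0.0657 without miR-26a replicate 2.

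**Figure D2:**
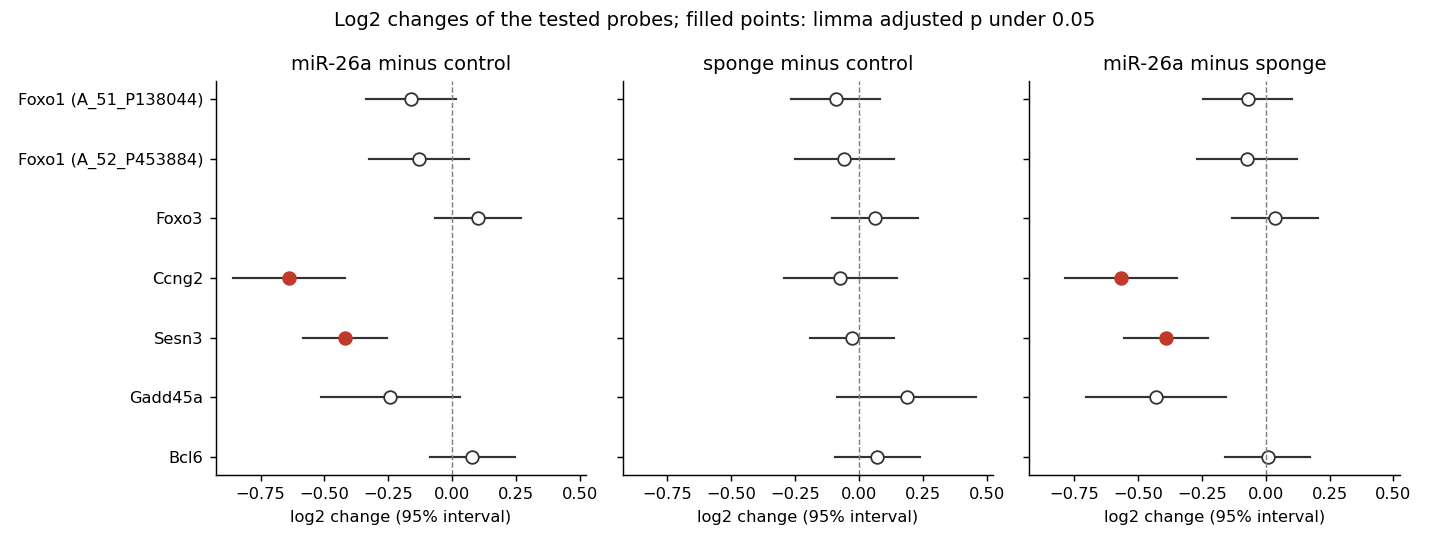
Log2 change (horizontal axis) of the 7 tested probes for miR-26a minus control, sponge minus control and miR-26a minus sponge, 2 arrays per group. Points are limma estimates, lines are 95% intervals without adjustment for multiple tests, and filled points have an adjusted p under 0.05. Ccng2 and Sesn3 are filled in the left and right panels, at -0.64 and -0.42 against control, and no point is filled in the middle panel.

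The probes most like Ccng2 over the 6 arrays, by the root mean square difference of log2 values after centring each probe, were those of Polm (0.05), which encodes a DNA polymerase of end joining, Hist1h2bc (0.06), a histone H2B gene, and Fam129b (0.06). For Sesn3 they were A430078G23Rik (0.01), Nckap1l (0.03), which encodes a regulator of the actin cytoskeleton in blood cells, and Hdac8 (0.03), a histone deacetylase. Ccng2 and Sesn3 themselves were 0.13 apart by this measure. None of these 6 is a gene of the lists that follow.

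Genes around the FOXO factors were described in 5 lists holding 68 genes, of which 64 had a tested probe. With miR-26a 9 of the 64 (14.1%) fell and 1 (1.56%) rose, beside the 5.14% and 4.5% of all tested probes. At an unadjusted p under 0.05 limma gave 19 lower and 11 higher, beside 13% and 14.3% of all tested probes. With the sponge limma called 0 lower and 0 higher, with 4 and 4 at an unadjusted p under 0.05. The other tests run called 0 after adjustment, as they did over all tested probes. Most of the genes that fell belonged to the lymphoid list. No list was tested against other genes, and the lists were chosen with earlier results of these data known, so these counts only describe them.

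Among 25 regulators of FOXO, including kinases of the PI3K pathway, 14-3-3 proteins, deacetylases and ligases, 1 fell, 0 rose and 24 did not pass with miR-26a (median change 0.05), each gene counted by its brightest probe. Of all tested probes 5.14% were called lower and 4.5% higher. At an unadjusted p under 0.05 limma gave 3 lower and 5 higher, beside 13% and 14.3% of all tested probes. The methods' t-test called 0 of all tested probes after adjustment, so its 0 calls here decide nothing. The one that fell was Skp2, the F-box protein of a ubiquitin ligase that targets FOXO1 and the cell cycle inhibitor p27. Skp2 read 11.38 and 11.32 in control, 9.80 and 9.93 in miR-26a, and 11.71 and 11.58 in sponge arrays. The miR-26a arrays were far below the rest, a change of -1.49 (SE 0.09, limma adjusted p = 0.00317), and with the sponge the change was 0.29 (adjusted p = 0.241). Of the 5 tested probes of Ywhaq, which encodes a 14-3-3 protein, the brightest gave 0.28 (adjusted p = 0.0762) and 1 other passed, at 0.38 (adjusted p = 0.0420).

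Of 21 other FOXO-responsive genes for arrest, stress, metabolism and cell death, 19 were tested, 2 fell, 1 rose and 16 did not pass by the brightest probe of each (median change 0.02). Of all tested probes 5.14% were called lower and 4.5% higher. At an unadjusted p under 0.05 limma gave 8 lower and 5 higher, beside 13% and 14.3% of all tested probes. The brightest probe of Cat, the catalase gene, gave -0.35 (adjusted p = 0.0534), and its other probe passed, at -0.45 (adjusted p = 0.0196). Irs2, an adaptor of the insulin receptor, read 10.15 and 10.41 in control, 9.21 and 9.32 in miR-26a, and 10.16 and 10.67 in sponge arrays. It fell by 1.02 (SE 0.11, limma adjusted p = 0.00869). Bbc3, which encodes the death inducer PUMA, read 9.82 and 9.74 in control, 9.24 and 9.11 in miR-26a, and 10.06 and 10.10 in sponge arrays. Its 3 groups did not overlap. Of all tested probes 49.3% had no overlap between miR-26a and control, and 37.7% between sponge and control. Bbc3 fell by 0.61 with miR-26a (SE 0.08, limma adjusted p = 0.0120), and its change of 0.30 with the sponge did not pass (adjusted p = 0.226). Gabarapl1, an autophagy gene, rose by 0.56 (SE 0.08, adjusted p = 0.0151), from 12.07 and 11.80 in control to 12.70 and 12.29, with 12.43 and 11.98 in sponge arrays. Each of these calls needed both control arrays: without replicate 1 and 2 the adjusted p was 0.0790 and 0.0739 for Irs2, 0.116 and 0.103 for Bbc3, and 0.144 and 0.0886 for Gabarapl1. Without the block it was 0.0664 for Irs2 and 0.261 for Gabarapl1.

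The list of lymphoid genes that depend on FOXO1 held 10 genes, all tested, and was chosen with earlier results of these data known. With miR-26a 6 fell, 0 rose and 4 did not pass by limma, beside 5.14% lower and 4.5% higher of all tested probes. At an unadjusted p under 0.05 limma gave 7 lower and 1 higher, beside 13% and 14.3% of all tested probes. The median change of the 10 genes was -0.54, beside 0.01 over all tested probes. Rag2, which encodes a subunit of the V(D)J recombinase, read 9.37 and 9.35 in control, 6.04 and 5.96 in miR-26a, and 9.32 and 9.60 in sponge arrays, a change of -3.36 (SE 0.10, limma adjusted p = 0.00105). Ccr7, a chemokine receptor, fell (-2.50, SE 0.10, adjusted p = 0.00158), as did Rag1, the catalytic recombinase subunit (-2.47, SE 0.20, adjusted p = 0.00555). After normexp background correction the Ccr7 change was -1.23. S1pr1, the receptor for egress from tissues, fell by 0.95 (SE 0.10, adjusted p = 0.00869), and Klf2, a transcription factor of lymphocyte trafficking, fell by 0.65 (SE 0.08, adjusted p = 0.0125). With normexp S1pr1 changed by -0.52. The sixth, the repressor Bach2, fell by 0.42 (SE 0.09, adjusted p = 0.0430), and its other probe fell by 0.45 (adjusted p = 0.0440). Its call did not survive the loss of any array, with adjusted p values of 0.0681 to 0.283. Without control replicate 1 the adjusted p was 0.0528 for Rag1, 0.0715 for S1pr1 and 0.110 for Klf2, and without control replicate 2 it was 0.0687 for Klf2. Without the block Klf2 came to 0.0889 and Bach2 to 0.487. Il7r, the receptor subunit for IL-7, did not pass, at 0.19 (adjusted p = 0.158), with 13.85 and 14.04 in control, 14.07 and 14.20 in miR-26a, and 13.76 and 14.00 in sponge arrays.

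Of 7 paralogues of the members (Foxo6, Sesn1, Sesn2, Gadd45b, Gadd45g, Ccng1 and Bcl6b) 6 were tested, and limma called 0 lower and 0 higher with miR-26a, with 1 lower and 0 higher at an unadjusted p under 0.05. Their changes ran from -0.40 to 0.17. Of 5 partners of Bcl6 (Bcor, Ncor1, Hdac3, Tbl1x and Zbtb17) 4 were tested, with 0 calls and 0 at an unadjusted p under 0.05, and changes from -0.07 to 0.05. Of all tested probes 5.14% were called lower and 4.5% higher, and at an unadjusted p under 0.05 these shares were 13% and 14.3% by limma. After adjustment the other tests run called 0 of all 20168 tested probes, so their 0 calls in both lists decide nothing. The plot of changes by list shows all 5 lists beside the member probes.

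**Figure D3:**
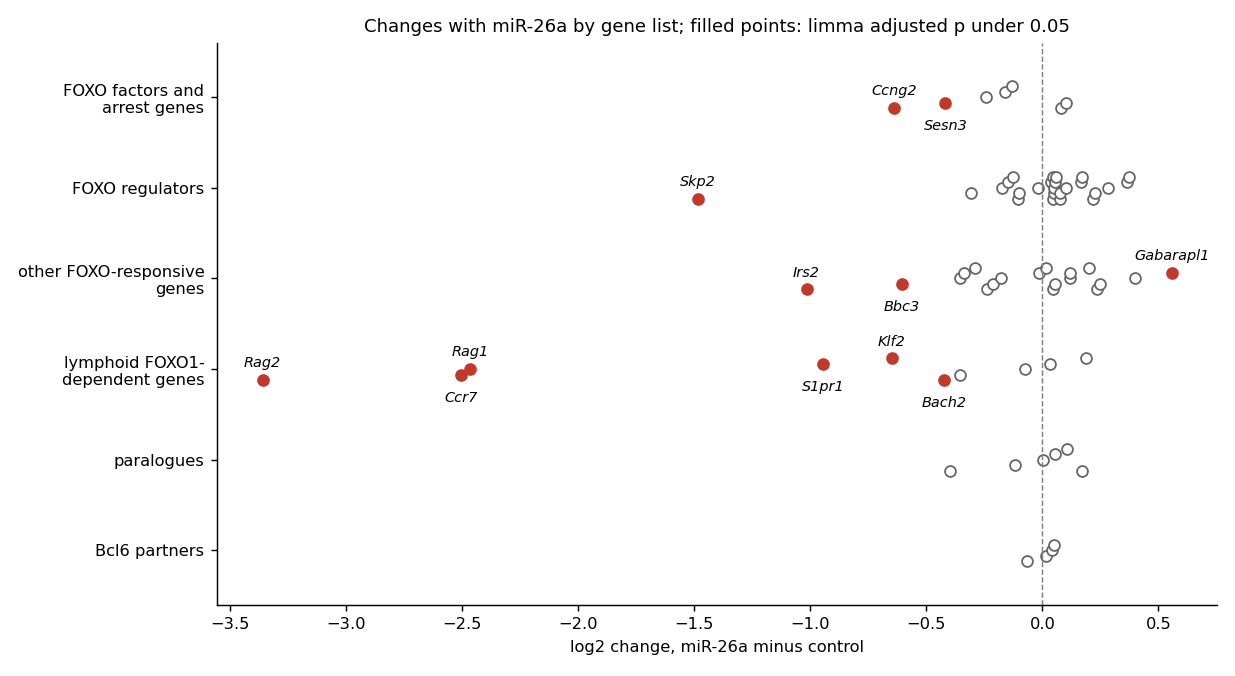
Log2 change with miR-26a (horizontal axis, miR-26a minus control, 2 arrays each) for the 7 member probes and for the 64 tested genes of 5 lists, 1 point per probe or gene, with points set apart vertically only to be seen. Filled points have a limma adjusted p under 0.05 and are named. The lymphoid list holds 6 filled points from -3.36 (Rag2) to -0.42 (Bach2), and the paralogues and Bcl6 partners hold none.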

How the data were processed

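The deposited scanner files hold 1-colour (Cy3) Agilent intensity values, made by the authors with Feature Extraction (10.7.3.1 in the file headers, 10.7.1.1 in the labels). The deposited value table is intensity on a linear scale, quantile-normalized by the authors, and was used as an alternative. Processed signals of the 6 arrays were quantile-normalized and log2-transformed, and spots of a probe were averaged without outlier flags. The test took 20168 of 55681 probes, those that exceeded a processed signal of 50 on 4 or more of the 6 arrays and were marked as well above background on 1 or more. It was made with limma 3.58.1 in R 4.3.3, which shares 1 spread over 3 groups, with Benjamini-Hochberg adjustment over all tested probes. Experiment was a block, and the replicate number was taken as the experiment. Same-numbered arrays deviated together (correlations 0.379, 0.588 and 0.454), and the authors normalized to the control of each experiment. The members and lists were chosen with earlier results of these data known. Some genes of the lists and marker sets are not reported here. A list gene with several probes is given by its brightest one, and at most 5 called genes per list, those with the smallest adjusted p, were to be named; Bach2, Il7r, Ywhaq and Cat were named after their values were seen. Simulated arrays with known changes were used to check the code of the fit. With 2 arrays per group precision is limited by their number. Gene names are those of the array design, probe positions are mm9 as in the files, and exon or UTR placement was not assigned.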

Additional observations from a re-analysis of the deposited data

How the results depend on the processing

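Results were recomputed under 18 alternatives, 6 of them leaving out 1 array. The methods' t-test among them is an unpaired t-test, chosen here because the paper's array methods name no test. Of the member probes, 2 were called lower with miR-26a against control and 2 against the sponge. Both counts went to 0 without the replicate block, with no filter on dim probes, with the methods' t-test and with a test of the log ratios against 0, and to 1 with only the arrays of the compared groups, and leaving out arrays gave 0 to 2 in either. The 9 list genes called lower with miR-26a went to 0 with no filter, the methods' t-test and the log ratio test, and to 3 to 9 on leaving out arrays. The 1 called higher went to 0 without the replicate block and under the same 3 alternatives, to 2 with normexp, and to 0 to 4 on leaving out arrays. The numbers of the replicates were taken to pair the samples. On that reading the fit without the block leaves in the difference between experiments. Over all probes, calls with miR-26a were 1036 lower and 908 higher, and 238 and 73 without the block, 635 and 488 with only the compared groups, 75 and 29 without control replicate 1, and 98 and 35 without control replicate 2. With no filter they were 0 and 0 (3170 and 3344 at an unadjusted p under 0.05), and with the methods' t-test 0 and 0 after adjustment (1331 and 1348 before). Of members called with miR-26a against control, the log2 change of Ccng2 ran from -0.76 to -0.52 and that of Sesn3 from -0.44 to -0.38. Uncalled differences changed sign under some settings. Leaving out arrays gave -0.1461 to 0.0326 for Foxo1 (A_52_P453884) and -0.1543 to 0.008 for Ccng2 in sponge against control, and -0.1629 to 0.0158 for that Foxo1 probe and -0.0207 to 0.0345 for Bcl6 in miR-26a against sponge. Scaling to the 75th percentile gave 0.0132 for that Foxo1 probe and 0.0052 for Sesn3 in sponge against control, and -0.0525 for Bcl6 in miR-26a against sponge, where the authors' values gave -0.0036. The causes were not tested. Signal limits Foxo4, whose probes were near background.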
